A study of Mus musculus with 22 samples.

Results

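Among 24965 hypothalamic nuclei profiled by single-nucleus RNA-sequencing, 1375 carried the deposited annotation of oligodendrocyte, and this annotation was the sole rule by which they were chosen here. All mice were male ob/ob mice of 11 weeks, which lack leptin and are obese and diabetic, and the controls shared that genotype. FGF1 mice received 3 µg of fibroblast growth factor 1 by intracerebroventricular (icv) injection, and vehicle mice received icv PBS and were pair-fed to the intake of the FGF1 mice. Hypothalami were taken 24 h later (Day 1; n = 3 mice per group) or on Day 5 (n = 2 per group), with 1 mouse per library. On Day 1 the oligodendrocyte nuclei numbered 164, 120 and 45 in the FGF1 mice and 76, 162 and 58 in the vehicle mice. On Day 5 they numbered 113 and 424 in the FGF1 mice and 182 and 31 in the vehicle mice. A separate Day 5 cohort of whole cells held 9962 cells in 3 oligodendrocyte clusters (n = 6 mice per group).

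Oligodendrocytes are the myelin-forming glia of the central nervous system. They wrap axons in a membrane compacted by Mbp, and carry Mog on its outer face and Mag on the face that touches the axon. Gap junctions couple them to one another, and they feed axons through metabolite transport. They arise from Pdgfra-expressing oligodendrocyte precursor cells (OPC) by way of Gpr17-expressing committed precursors (COP), and they express FGF receptors.

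The annotation was first set beside its markers, with levels given as CPM, the UMIs of a gene (unique molecular identifiers, the counted transcripts) summed over all nuclei of a type and scaled to a common library total. Mog stood at 308 CPM in the oligodendrocyte nuclei and at 70.6 CPM in the next highest of 29 annotated types, the OPC and COP nuclei. Mag was at 160 against 63.7 CPM, Mobp at 244 against 179 CPM and Cldn11 at 178 against 136 CPM. Mbp was the exception, with 502 CPM in oligodendrocyte nuclei and 1215 CPM in astrocyte nuclei. A Gpr17 UMI was found in 0.509% and a Pdgfra UMI in 2.18% of the oligodendrocyte nuclei. Beside Mog, the genes with the largest ratios to the next type, among genes with at least 300 UMIs in these nuclei, were Sec14l5 (7.25-fold), Opalin (6.21-fold), Tnfaip6 (3.86-fold), Litaf (3.13-fold) and Aspa (2.77-fold), of which Opalin encodes a myelin membrane protein and Aspa the enzyme that releases acetate from N-acetylaspartate. These are a description, since the clusters were built on the same genes.

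**Figure D1:**
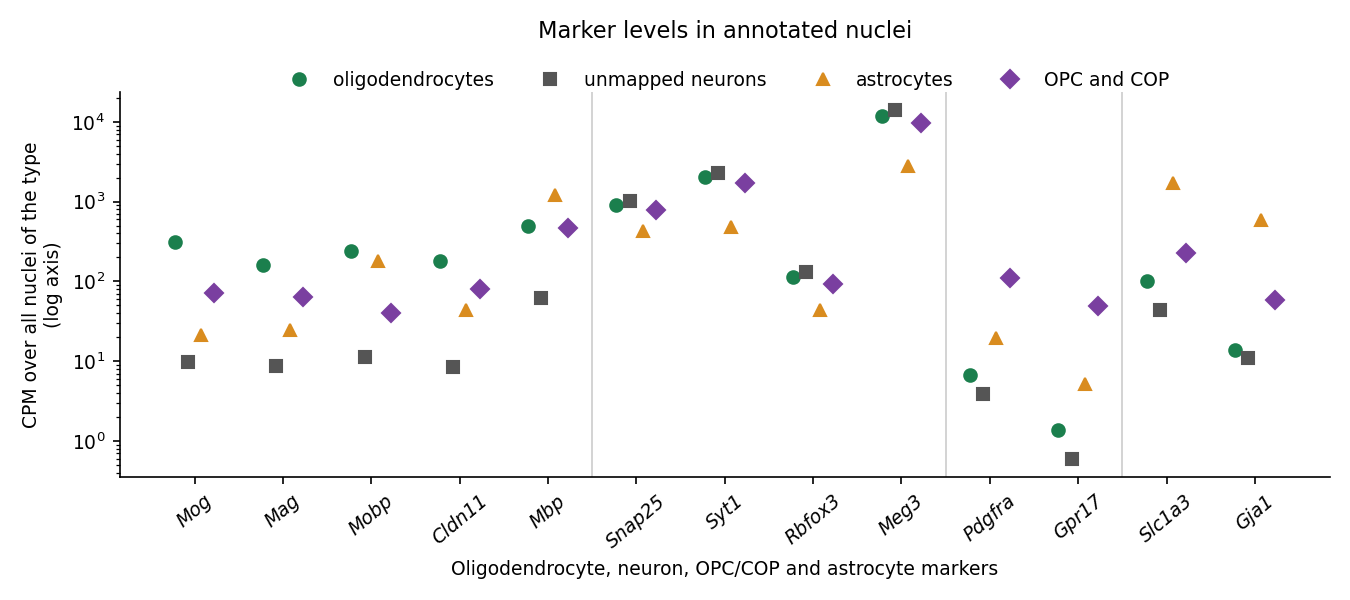
Levels of 13 marker genes (CPM over all nuclei of a type, log axis) in nuclei annotated as oligodendrocytes (circles), unmapped neurons (squares), astrocytes (triangles) and OPC and COP (diamonds), each point the sum over all nuclei of the type. Mog, Mag, Mobp and Cldn11 were highest in the oligodendrocyte nuclei, Mbp was highest in astrocyte nuclei, and the neuronal genes Snap25, Syt1, Rbfox3 and Meg3 stood almost as high in oligodendrocyte nuclei as in neurons.

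The same nuclei held neuronal transcripts at nearly the neuronal level. Snap25, a synaptic vesicle fusion protein, was at 910 CPM against 1013 CPM in unmapped neurons (the 11986 neurons that matched no published type), and the calcium sensor Syt1 was at 2035 against 2318 CPM. A list of 12 neuronal markers took a median of 265.9 of every 10000 UMIs of an oligodendrocyte nucleus, 311 in unmapped neurons, 224 in OPC and COP nuclei and 33.3 in astrocyte nuclei. 13 of the 1375 nuclei had 50 or fewer such UMIs per 10000, and these carried a median of 16 UMIs of Mbp, Mog and Mag together, against 3 in the other nuclei. 158 oligodendrocyte nuclei (11.5%) had no UMI of Mbp, Mog or Mag, against 81.9% of unmapped neurons. The term oligodendrocyte nuclei is therefore used for nuclei with that annotation, with neuronal RNA in them.

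The neuronal RNA overlapped between treatments on Day 1, which does not show it to be equal. The 12 markers summed to 24651 ± 1940 CPM after FGF1 and to 25363 ± 2949 CPM after vehicle (mean ± SD, n = 3 each; exact two-sided permutation test p = 0.7, where the smallest p that 3 against 3 mice allow is 0.1). In nuclei with 3 or more UMIs of Mbp, Mog and Mag together, without FGF1 mouse 3, the sums were 21904 ± 1159 and 25067 ± 2753 CPM (exact permutation p = 0.3). The own markers did move with treatment: 38.4, 24.2 and 26.7% of nuclei had no Mbp, Mog or Mag UMI in the FGF1 mice, against 3.95, 8.64 and 3.45% in the vehicle mice. The summed levels of 3 other marker lists were lower after FGF1 without overlap, with 410 to 721 against 818 to 1220 CPM for astrocytes, 63.9 to 84.5 against 91.4 to 110 CPM for microglia, and 47.4 to 69.6 against 73.2 to 102 CPM for ependymal cells, while the OPC, endothelial, tanycyte and VLMC (vascular and leptomeningeal) lists overlapped. Most of the astrocyte sum was 1 gene, Gpc5, at 386 ± 83.2 CPM after FGF1 and 677 ± 124 CPM after vehicle. Gpc5 was not particular to astrocytes, with 1528 ± 432 CPM in the OPC and COP nuclei of vehicle mice. The part of these lists in the results below was not tested. Depth was 162963 to 1299375 UMIs per mouse and a median of 2420.5 to 4962 UMIs per nucleus. FGF1 mouse 1 of Day 1 had the shallowest nuclei and the largest share of mitochondrial and ribosomal UMIs, a median of 2.01% against 0.726 to 1.19% in the other mice.

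Oligodendrocyte nuclei made up 3.36, 4.85 and 4.11% of annotated nuclei in the Day 1 FGF1 mice and 6.23, 7.43 and 5.47% in the vehicle mice. The groups did not overlap, and the means were 4.11 ± 0.746% and 6.38 ± 0.988% (SD, n = 3; difference -2.27 percentage points, exact two-sided permutation test p = 0.1, the smallest possible). As a share of non-neuronal nuclei the groups overlapped, at 22.1 ± 3.99% and 28.8 ± 4.33% (n = 3 each; exact p = 0.2). On Day 5 the share was 6.40 ± 1.73% after FGF1 and 5.63 ± 0.410% after vehicle (n = 2; exact p = 1, smallest possible 0.333). Fewer nuclei of a type and a different yield of other types cannot be told apart in such shares.

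Which transcripts changed within these nuclei 1 day after FGF1 was then tested on UMIs summed per mouse. A total of 16 of 7192 genes tested differed by edgeR's quasi-likelihood test with Benjamini-Hochberg adjustment (FDR < 0.05), 12 higher and 4 lower after FGF1, or 0.222% of genes in either direction, 0.167% higher and 0.0556% lower. Before adjustment 412 genes (5.73%) had p under 0.05, and the median log2 fold change of all genes was 0.02. The higher genes comprised the cytokine gene Il33, the transcription factor Stat3, the protease inhibitor Serpina3n, the intermediate filament Vim, the gap junction protein Gjb1 and enzymes of glycerol phosphate and methionine metabolism, Gpd1 and Mat2a. The lower genes were Mog, Sept4, Aspa and BC051142. Values below are TMM-scaled CPM per mouse, in the order of mice 1, 2 and 3, and folds are on the log2 scale ± SE.

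Il33 (chr19:29925114-29960718, GRCm38) encodes a nuclear alarmin of the interleukin-1 family that mature oligodendrocytes are known to make. It was at 269, 316 and 441 CPM in the FGF1 mice and at 64.9, 37.7 and 51.9 CPM in the vehicle mice. The lowest FGF1 mouse lay far above the highest vehicle mouse, and the log2 fold change was 2.74 ± 0.33 (FDR = 0.0079). With every nucleus thinned to 1000 UMIs, the expected share with an Il33 UMI was 20.4 to 30.8% of oligodendrocyte nuclei after FGF1 and 3.14 to 6.06% after vehicle, beside 2.15 to 3.12% and 1.66 to 1.94% of unmapped neurons. Unthinned, the shares were 38.4 to 64.4% and 10.5 to 26.3%. Il33 was called in 11 of 15 alternative analyses, and Rhoj in 9 of 15. Mog, Sept4 and Cdh20 were called in 5 of 15, Vim in 4 of 13 and Serpina3n in 3 of 12.

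Of the other genes that rose, Stat3 (chr11:100885098-100939540), which relays interleukin-6 family signals, was at 153, 192 and 191 CPM after FGF1 and 41.3, 41.0 and 56.3 CPM after vehicle (log2 fold change 1.97 ± 0.30, FDR = 0.0177). Serpina3n (chr12:104406729-104414329) was at 75.2, 50.8 and 49.0 against 8.84, 11.5 and 8.66 CPM (2.52 ± 0.43, FDR = 0.0358). No mouse of one group reached the other group in either gene. Vim (chr2:13573927-13582826) was at 94.6, 50.8 and 43.6 CPM after FGF1 and at 11.8, 3.28 and 8.66 CPM after vehicle, the latter resting on 8 UMIs over the 3 mice (3.15 ± 0.55, FDR = 0.0358). S100a6, a calcium-binding protein, was at 182, 77.3 and 169 against 20.6, 14.8 and 21.6 CPM (2.92 ± 0.43, FDR = 0.015).

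Gjb1 (chrX:101376378-101385629) encodes connexin 32, through which oligodendrocytes couple to one another and across myelin layers. It was at 75.2, 84.0 and 92.6 CPM after FGF1 and at 8.84, 13.1 and 4.33 CPM after vehicle (log2 fold change 3.04 ± 0.43, FDR = 0.0131). The 3 FGF1 mice lay close together, and all were above every vehicle mouse, where the values rest on 12 UMIs in all. Rhoj (chr12:75308322-75401456), a small GTPase of the Cdc42 family, was at 158, 252 and 261 against 47.2, 41.0 and 43.3 CPM (2.34 ± 0.31, FDR = 0.00998). Cdh20, a cadherin, had a log2 fold change of 1.72 ± 0.30 (FDR = 0.0358), and the collagen chain Col5a3 one of 3.58 ± 0.64 (FDR = 0.0368), the latter on 4 UMIs in all vehicle mice together.

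Of the metabolic genes, Gpd1 (chr15:99717515-99725005) encodes cytosolic glycerol-3-phosphate dehydrogenase, which links glycolysis to glycerolipid synthesis and is a known oligodendrocyte enzyme. Its levels were 75.2, 104 and 98.05 CPM in the FGF1 mice and 8.84, 11.5 and 12.98 CPM in the vehicle mice. The groups did not overlap, with a log2 fold change of 3.02 ± 0.40 (FDR = 0.00998), and the vehicle values rest on 13 UMIs in all. Mat2a (chr6:72432799-72439558), which makes the methyl donor S-adenosylmethionine, was at 710, 921 and 752 against 203, 356 and 229 CPM (1.58 ± 0.27, FDR = 0.0358). Fkbp1a, the FK506-binding prolyl isomerase, was at 255, 135 and 120 against 32.4, 39.4 and 51.9 CPM (2.08 ± 0.37, FDR = 0.0358). An antisense gene, Particl, overlaps Mat2a, and the sources used here do not say whether reads were counted by strand.

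**Figure D2:**
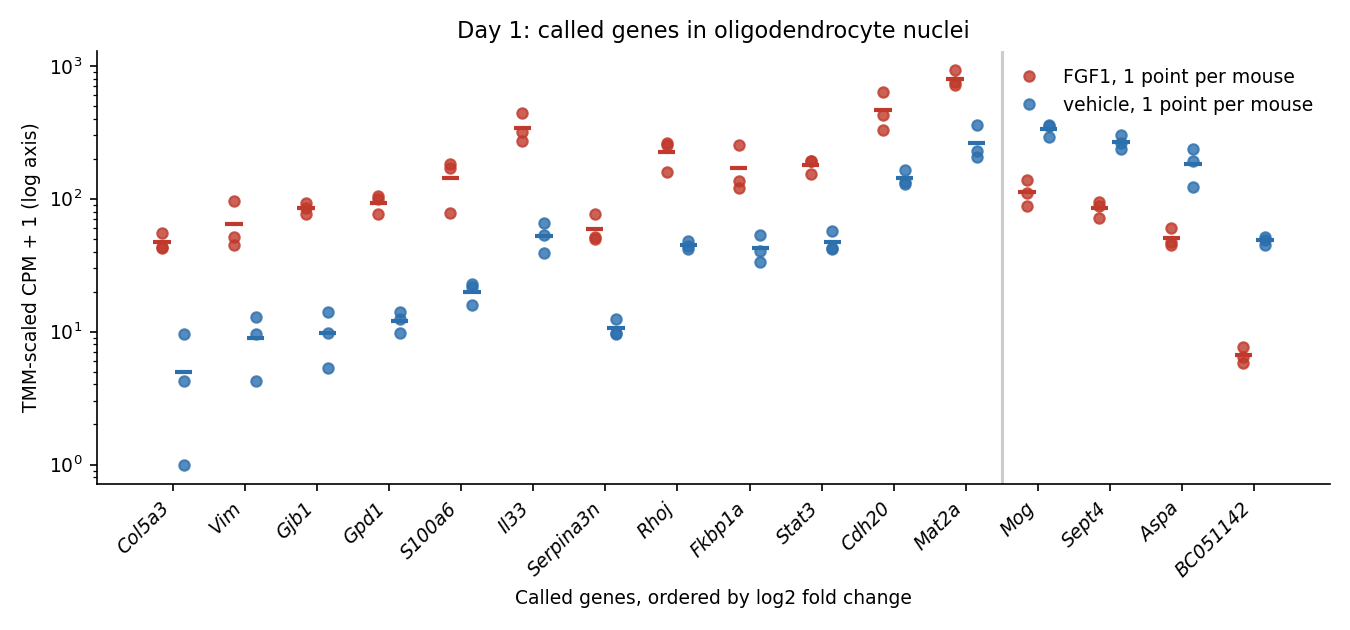
TMM-scaled CPM plus 1 (log axis) of the 16 genes called on Day 1, with 1 point per mouse and a bar at the mean, FGF1 left and vehicle right of each pair. The 12 genes left of the vertical line were higher and the 4 right of it lower after FGF1, and in each of the 16 genes the 3 FGF1 mice did not overlap the 3 vehicle mice.

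Mog (chr17:37010743-37023398) was the compact myelin gene that fell. It was at 109, 137 and 87.2 CPM after FGF1 and at 360, 292 and 351 CPM after vehicle, so that the highest FGF1 mouse lay below the lowest vehicle mouse. The log2 fold change was -1.56 ± 0.27 (FDR = 0.0358). In nuclei with 3 or more UMIs of Mbp, Mog and Mag together, a set chosen in part by Mog itself and without FGF1 mouse 3, which had 9 such nuclei, it was -0.20 (FDR = 0.999). After thinning to 1000 UMIs, a Mog UMI was expected in 8.53 to 12.4% of nuclei after FGF1 and in 24.4 to 27.8% after vehicle, beside 0.313 to 0.469% and 0.801 to 1.32% of unmapped neurons. Unthinned, the shares were 17.7 to 30.8% and 59.3 to 75.0%.

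Sept4 (chr11:87568903-87590539), a septin of the myelin sheath, was at 87.3, 92.8 and 70.8 CPM after FGF1 and at 236, 263 and 299 CPM after vehicle (log2 fold change -1.64 ± 0.27, FDR = 0.0349). Aspa (chr11:73304992-73329596) was at 46.1, 59.7 and 43.6 against 121, 190 and 234 CPM (-1.83 ± 0.33, FDR = 0.0383). BC051142 (chr17:34398820-34460734) was at 4.85, 6.63 and 5.45 against 44.2, 50.9 and 47.6 CPM (-2.99 ± 0.48, FDR = 0.0286), the FGF1 values resting on 6 UMIs in all. All 3 genes were lower in every FGF1 mouse than in any vehicle mouse.

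The remaining compact myelin genes were mostly below vehicle but did not pass the test. Of 13 tested members of a list of 14, 1 (Mog) fell, beside 0.0556% of all genes, and 0 rose. Folds below 0 were found for 10, with a median log2 fold change of -0.60 beside 0.02 for all genes. The groups did not overlap for 3 of the 13 (Mbp, Mog and Mal), all lower, beside 5.39% of all genes lower and 5.91% higher without overlap. Mbp was at 272, 411 and 153 against 660, 504 and 567 CPM (-1.02 ± 0.32, FDR = 0.584), and Mal, a proteolipid of compact myelin, at 50.9, 37.6 and 10.9 against 97.3, 128 and 121 CPM (-1.67 ± 0.40, FDR = 0.215). In the nuclei with 3 or more UMIs of Mbp, Mog and Mag, without FGF1 mouse 3, 6 of these folds turned positive, at 0.076 for Mbp, 0.65 for Mobp, 0.68 for Cnp, 0.55 for Opalin, 0.35 for Cldn11 and 1.12 for Gsn, none of them called. In all nuclei Mobp (-0.11 ± 0.25) and Mag (0.07 ± 0.33) had folds near 0, and Cd9 (0.83 ± 0.47) and Cryab (0.62 ± 0.37) had folds above 0.

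Because nuclei with no own-marker UMI were more frequent after FGF1, the make-up of the myelin transcripts was also compared. The compact myelin list summed to 1326 ± 346 CPM after FGF1 and 2019 ± 211 CPM after vehicle (SD, n = 3; exact permutation p = 0.1, the smallest possible), without TMM scaling and without overlap. Within that sum, Mog took 6.82, 8.04 and 8.51% in the FGF1 mice and 17.8, 12.8 and 15.9% in the vehicle mice. Mag took 8.33, 14.01 and 12.2% against 5.56, 8.10 and 8.25%, and Mobp 16.7, 16.3 and 19.1% against 14.04, 12.1 and 11.002%. Of the 14 shares, 2 were lower (Mog and Mal) and 4 higher (Mobp, Mag, Cd9 and Cryab) after FGF1 without overlap, each at the smallest p possible, 0.1 by the exact permutation test, and 8 overlapped, Mbp among them. These shares come from the same UMIs as the folds above, and they depend on which genes the sum holds. They also add up to a fixed total, so lower shares of some genes go with higher shares of others. Mobp and Mag, higher as shares, had folds near 0.

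**Figure D3:**
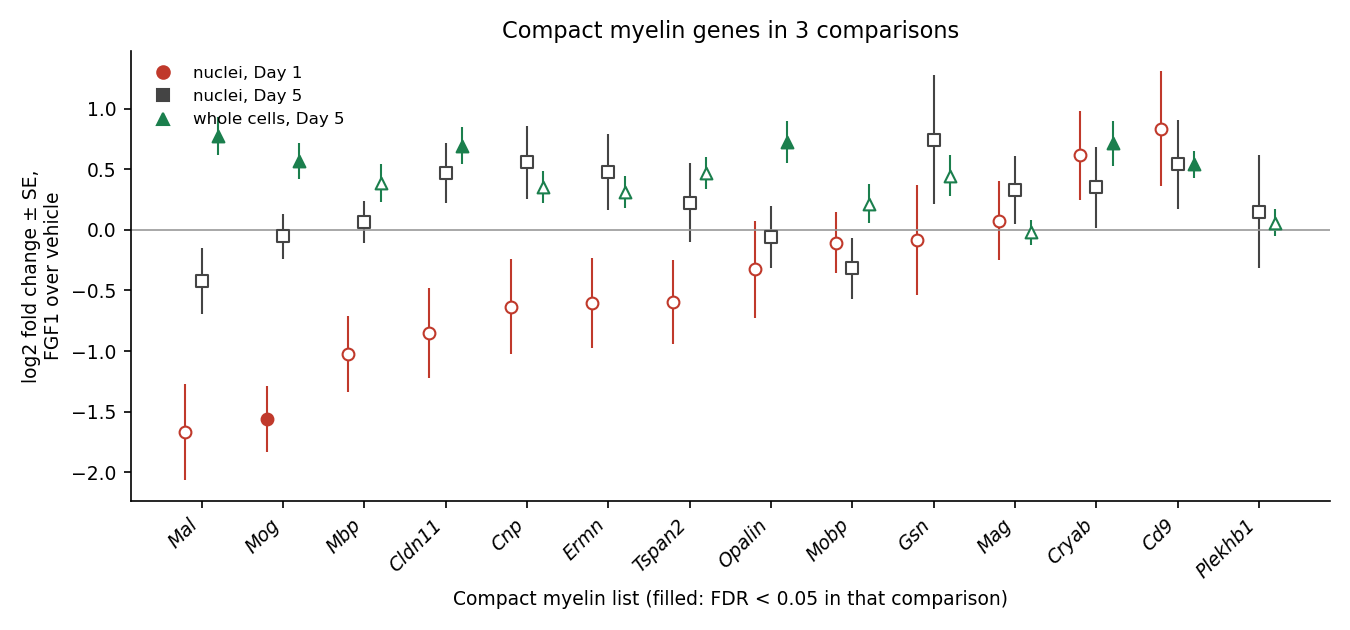
Log2 fold change ± SE, FGF1 over vehicle, of 14 compact myelin genes in oligodendrocyte nuclei on Day 1 (circles), nuclei on Day 5 (squares) and whole cells on Day 5 (triangles), filled where FDR < 0.05 in that comparison and open otherwise. On Day 1, 10 of 13 folds lay below 0 with Mog alone called, and in the Day 5 whole cells 13 of 14 lay above 0 with 6 called. Plekhb1 was not tested on Day 1.

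Gene lists, chosen with earlier results of these data known, were then read as groups on Day 1 as a description. Of 25 genes listed for reactive (disease-associated) oligodendrocytes, 7 had enough UMIs to be tested and 4 rose (Il33, Stat3, Serpina3n and Vim), beside 0.167% of all genes. The filter on low counts passes genes that are high in 1 group alone, and Vim and Serpina3n had 8 and 12 UMIs in all vehicle mice. Nothing is therefore read from the number that rose or from the direction of the tested members. Cd63, a tetraspanin of late endosomes, had a log2 fold change of 2.00 ± 0.44 without passing (FDR = 0.181). The mature subtype list had 13 tested members of 21, with a median of 0.02. Of these 2 rose (Il33 and Gjb1) and 1 fell (Aspa), beside 0.167% and 0.0556% of all genes. The list of potassium channels and gap junctions had 8 tested members of 16 and 1 that rose, Gjb1, beside the same 0.167%. Gjb1 had 12 UMIs in all vehicle mice, so nothing is read from its rise in either list.

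The FGF pathway itself had no called member. Of 15 FGF receptors and ligands, 7 were tested and 0 passed, and their median was 0.03. Fgfr2, the most abundant receptor gene in these nuclei, was at 570, 502 and 501 CPM after FGF1 and 837, 671 and 502 CPM after vehicle (-0.36 ± 0.25, FDR = 0.941), with the highest FGF1 mouse above the lowest vehicle mouse. Of 18 genes for feedback and targets of the MAPK cascade downstream of FGF receptors, 6 were tested and 0 passed. All 6 had folds above 0 (median 0.59), and 1 was higher without overlap, beside 5.91% of all genes. The filter on low counts passes genes that are high in 1 group alone, so nothing is read from that direction. The closest to passing was Spry2, an inhibitor that FGF signalling is known to induce, at 53.3, 57.4 and 65.4 against 11.8, 16.4 and 4.33 CPM (2.21 ± 0.44, FDR = 0.0756). No immediate early gene had enough UMIs to be tested.

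Hormone, lipid and lineage lists also held no called gene. They passed the same filter on low counts, so nothing is read from the directions of their members. Of 20 glucocorticoid-responsive genes, 11 were tested, 8 had folds above 0 (median 0.63) and 5 were higher without overlap, beside 5.91% of all genes, among them the metallothioneins Mt1 (1.33 ± 0.37, FDR = 0.462) and Mt2 (1.34 ± 0.36, FDR = 0.386). Of 29 genes of sterol and fatty acid synthesis, which supplies myelin lipid, 21 were tested and 15 had folds above 0 (median 0.27). The groups did not overlap for 7 of the 21 with higher levels, Sqle among them (0.94 ± 0.38, FDR = 0.831), and for 2 with lower levels, among them Acaca (-0.61 ± 0.25, FDR = 0.837), beside 5.91% and 5.39% of all genes. Of 16 genes of newly formed oligodendrocytes, 6 were tested and 5 had folds above 0, and Bcas1, a marker of early myelinating cells, was at 109, 228 and 158 against 59.0, 37.7 and 64.9 CPM (1.66 ± 0.36, FDR = 0.126). Of 19 lineage regulators, 11 were tested and 8 lay above 0 (median 0.30). Myt1, the member with the lowest p, was at 12.1, 28.7 and 10.9 against 53.1, 36.1 and 47.6 CPM, without overlap (-1.25 ± 0.45, FDR = 0.734), and Myrf, which drives myelin gene transcription, had a fold of 0.74 ± 0.44 (FDR = 0.928). The lists for axon contact (14 tested), heat shock (11), iron handling (6), glucose and lactate (12), insulin and IGF signalling (15), antigen presentation (4), transmitter receptors (20) and lineage growth signals (15) had 0 called and medians from -0.02 to 0.41.

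Each Day 1 batch, as the deposited metadata call it without saying of what, held 1 FGF1 and 1 vehicle mouse. With the batch as a block 0 genes were called by edgeR (259 at p under 0.05). Since the groups did not overlap in any of the 16 genes, their sign within batches was fixed, and the ratios are given for their size only. The within-batch log2 ratios (CPM plus 1) were 2.27 to 3.51 for Il33, 2.73 to 3.84 for Gjb1, -1.73 to -1.39 for Mog and -1.88 to -1.34 for Sept4. The number of calls fell to 0 in thinned nuclei and in nuclei with 3 or more own-marker UMIs, and to 1 in nuclei at or below the median neuronal share. With vehicle mouse 1 left out it was 0 (299 genes at p under 0.05), with FGF1 mouse 3 left out 1, and with FGF1 mouse 1, the library with the most mitochondrial and ribosomal UMIs, left out 36, of which 14 were among the 16. The log2 fold change of Mog ranged from -1.75 to -0.20 over all 15 alternatives.

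To see whether these changes were shared, the same genes were read in other types of the same mice, here as CPM without TMM scaling. Il33 stood at 314 ± 80.7 CPM in oligodendrocyte nuclei after FGF1 (mean ± SD, n = 3), at 172 ± 39.9 in astrocytes, 108 ± 63.9 in OPC and COP nuclei and 31.1 ± 8.46 in unmapped neurons. After vehicle it stood at 47.5 ± 10.7, 22.1 ± 8.45, 21.5 ± 26.4 and 17.99 ± 2.66 CPM in the same order, and its log2 fold change in astrocytes, 2.89 ± 0.46 (FDR = 0.0114), stood beside 2.74 ± 0.33 in oligodendrocyte nuclei. After FGF1, Vim stood at 57.7 ± 24.8 CPM in oligodendrocyte nuclei, 49.5 ± 18.6 in unmapped neurons, 57.8 ± 15.03 in OPC and COP nuclei and 727 ± 86.9 in astrocytes. Serpina3n was at 53.5 ± 12.9, 41.4 ± 10.9, 98.9 ± 48.3 and 807 ± 235 CPM in that order, and S100a6 at 130.5 ± 50.8, 100.2 ± 60.1, 142.5 ± 59.6 and 1472 ± 198 CPM. Astrocytes thus had the highest mean of these 3 genes after FGF1, and oligodendrocyte nuclei the highest mean of Il33. After vehicle, astrocytes had 40.6 ± 7.60, 24.8 ± 14.3 and 169.9 ± 71.8 CPM of Vim, Serpina3n and S100a6. All 3 were called higher in astrocytes (FDR from 0.00575 to 0.0291). Rhoj (log2 fold change 3.405 ± 0.581, FDR = 0.0151) and Col5a3 (3.77 ± 0.61, FDR = 0.0122) were also called there. In OPC and COP nuclei, Serpina3n (3.73 ± 0.62) and Stat3 (2.17 ± 0.37) were called, both with FDR = 0.0393. None of these genes was called in unmapped neurons, but several folds there were large. They were 3.17 ± 0.38 for Vim (FDR = 0.0572) and 3.06 ± 0.41 for Serpina3n (FDR = 0.0819). For S100a6 the fold was 2.94 ± 0.54 (FDR = 0.355), for Stat3 1.48 ± 0.24 (FDR = 0.188) and for Il33 0.80 ± 0.28 (FDR = 0.644). After vehicle, unmapped neurons had 5.64 ± 2.12 CPM of Vim, 5.15 ± 2.75 of Serpina3n and 13.04 ± 8.48 of S100a6. Mog was lower after FGF1 in all 4 types, at 3.52 ± 0.803 against 13.04 ± 2.45 CPM in unmapped neurons, 3.90 ± 3.76 against 36.0 ± 5.70 CPM in astrocytes and 34.3 ± 9.40 against 76.2 ± 13.8 CPM in OPC and COP nuclei. The means of Sept4, Aspa and BC051142 were also lower after FGF1 in each of these types. In astrocytes the log2 fold change was -1.69 ± 0.46 for Sept4 (FDR = 0.119) and -2.19 ± 0.48 for Aspa (FDR = 0.0513). In unmapped neurons it was -0.50 ± 0.23 for Sept4 and -2.06 ± 0.52 for Aspa. RNA carried between droplets was not tested as a part of these values.

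**Figure D4:**
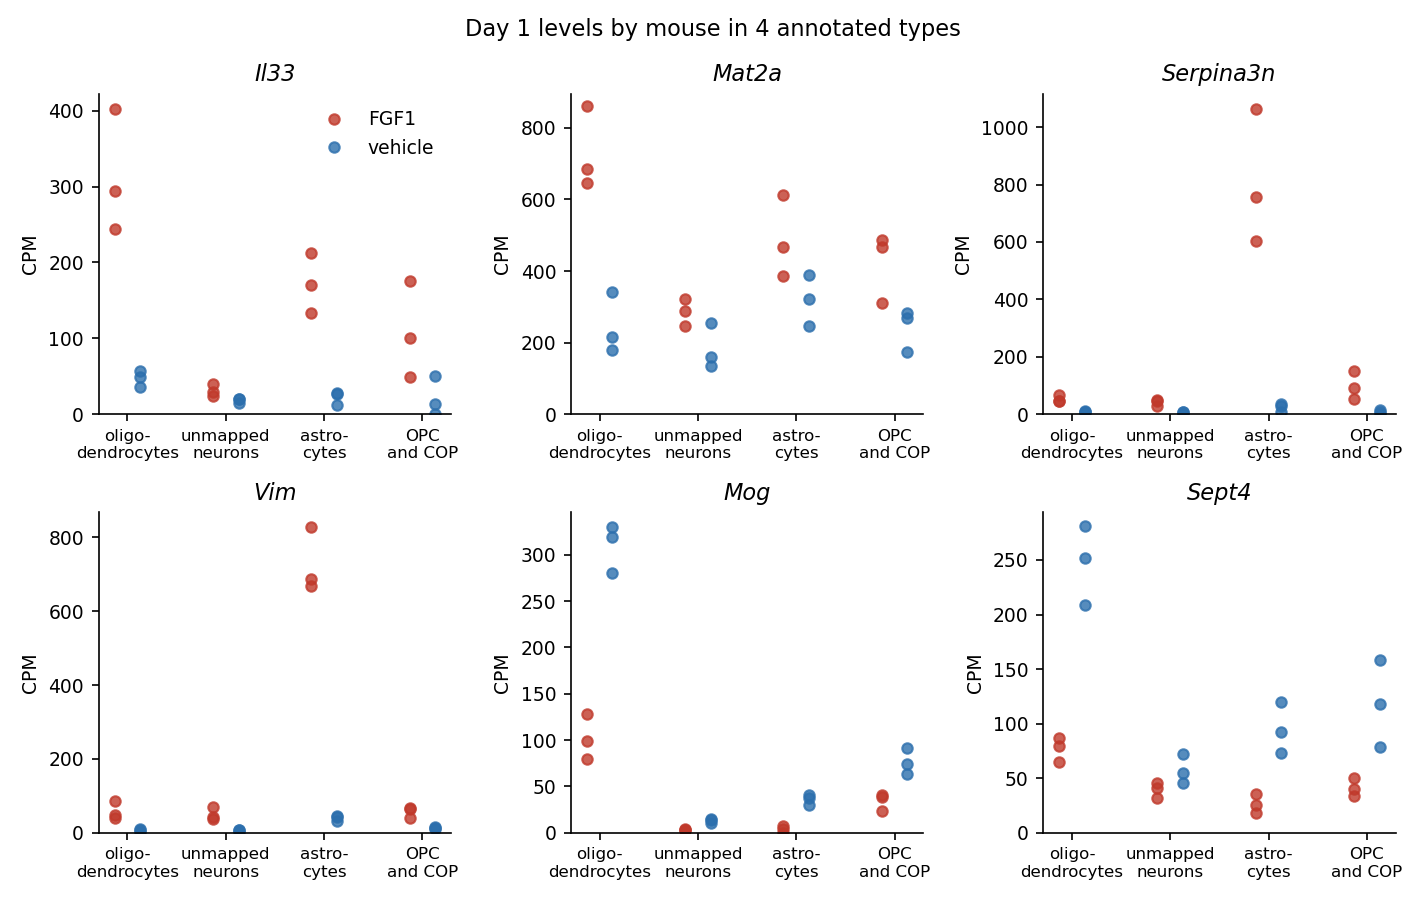
CPM (linear axes) of Il33, Mat2a, Serpina3n, Vim, Mog and Sept4 on Day 1 in 4 annotated types, with 1 point per mouse (FGF1 left, vehicle right; n = 3 each). Il33 and Mat2a were highest in oligodendrocyte nuclei after FGF1, Serpina3n and Vim were highest in astrocytes, and Mog and Sept4 were highest in the oligodendrocyte nuclei of vehicle mice.

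The difference between effects was tested with the mouse as a block. The counts of called genes in the tests against each type moved when a mouse was left out, as given in the last section. Against unmapped neurons, 21 of 11581 genes (0.181%) had a different FGF1 effect, 18 of them higher (0.155%) and 3 lower (0.0259%) in oligodendrocyte nuclei, and 5.44% of genes had p under 0.05. The lowest p belonged to Slc38a2, a sodium-coupled transporter of neutral amino acids, at 328 ± 130 against 120 ± 50.5 CPM in oligodendrocyte nuclei and 69.9 ± 42.3 against 68.3 ± 38.9 CPM in neurons (difference of log2 fold changes 1.45 ± 0.19, FDR = 1.13e-08). Next came Il33 (1.93 ± 0.26, FDR = 5.18e-08), Mat2a (0.90 ± 0.14, FDR = 5.31e-06), the long non-coding RNA Pvt1 (1.22 ± 0.20, FDR = 4.11e-05) and Dock1, an activator of Rac (1.36 ± 0.23, FDR = 0.000253). Of the other genes called on Day 1, Gpd1 (2.68 ± 0.61, FDR = 0.0151), Rhoj (1.27 ± 0.29, FDR = 0.0142), Cdh20 (1.05 ± 0.19, FDR = 0.000415) and Sept4 (-1.12 ± 0.22, FDR = 0.00104) also differed from neurons. Bcas1, not called on Day 1, differed as well (1.67 ± 0.42, FDR = 0.0494). For Vim (0.09 ± 0.60), S100a6 (0.11 ± 0.40), Gjb1 (0.04 ± 0.30), Stat3 (0.43 ± 0.25), Mog (0.46 ± 0.32) and Aspa (0.11 ± 0.32) no difference was called, each with FDR of 0.999 or above, and these intervals do not show equal effects.

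Against astrocytes, 9 of 8457 genes (0.106%) had a different effect, 2 higher (0.0236%) and 7 lower (0.0828%) in oligodendrocyte nuclei, and 8.16% had p under 0.05. Shisa6, an AMPA receptor auxiliary protein, was at 74.4 ± 17.3 against 106 ± 42.6 CPM in oligodendrocyte nuclei and 369.7 ± 172 against 81.4 ± 54.1 CPM in astrocytes (-2.78 ± 0.40, FDR = 0.000471). Itga5 (-4.23 ± 0.70, FDR = 0.0022), an integrin subunit, Hpgd (-5.64 ± 1.0985, FDR = 0.0158), a prostaglandin-degrading enzyme with 2 UMIs in vehicle astrocytes, and Oxr1 (-2.03 ± 0.39, FDR = 0.0158), an oxidation resistance gene, likewise had the larger effect in astrocytes. A330033J07Rik fell further in astrocytes, at 19.1 ± 15.7 against 366 ± 148 CPM there and 30.4 ± 4.33 against 60.4 ± 17.9 CPM in oligodendrocyte nuclei (3.54 ± 0.55, FDR = 0.000994). Of the genes called on Day 1, 0 were called in this test, with Serpina3n at -2.61 ± 0.68 (FDR = 0.15) and Il33 at -0.10 ± 0.46 (FDR = 0.981).

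Against the precursors of the same lineage, 6 of 5840 genes (0.103%) differed, 2 higher (0.0342%) and 4 lower (0.0685%) in oligodendrocyte nuclei, and 5.94% had p under 0.05. Lhfpl3, a precursor marker, was at 570 ± 81.6 against 621 ± 106 CPM in oligodendrocyte nuclei and 2727 ± 977 against 1352 ± 332 CPM in OPC and COP nuclei (-1.03 ± 0.17, FDR = 5.28e-06). Gpc5 (-1.06 ± 0.17, FDR = 5.28e-06), a glypican, Cdh19 (-1.28 ± 0.26, FDR = 0.00285), a cadherin, and Oxr1 (-0.87 ± 0.20, FDR = 0.0131) had a lower effect in oligodendrocyte nuclei, while Bcas1 (1.64 ± 0.35, FDR = 0.0131) and Nnat, the imprinted neuronatin gene (1.00 ± 0.23, FDR = 0.0131), had a higher one. For Nnat this was a smaller fall, since its mean was lower after FGF1 in both types. It was at 235 ± 268 against 468 ± 76.8 CPM in oligodendrocyte nuclei and 174 ± 149 against 770 ± 314 CPM in OPC and COP nuclei. Nnat was at 544, 96.9 and 64.6 CPM in the FGF1 oligodendrocyte nuclei, so mouse 1 stood apart. Of those genes called on Day 1 that were tested here, 0 were called, with Mat2a at 0.80 ± 0.22 (FDR = 0.158). Col5a3 was not tested.

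By Day 5, 10 of 8407 genes (0.119%) differed by edgeR's quasi-likelihood test, all of them lower after FGF1, and 573 genes (6.82%) had p under 0.05. The count was 4 with DESeq2, 22 with the batch as a block, 69 without the filter on low counts and 23 to 129 with 1 mouse left out. Ptgds, Nnat, Mylip and Gm26917 were called in 12 of 12 alternatives, Snrnp70 in 9 of 12, Cox6a1 in 9 of 11, Oxa1l and Rabac1 in 8 of 11, Gm11273 in 8 of 9 and Rab26 in 6 of 8. Values are again TMM-scaled CPM, for FGF1 mice 37 and 45 and vehicle mice 28 and 38. Ptgds, prostaglandin D2 synthase, an abundant product of oligodendrocytes and meninges, was at 489 and 533 CPM after FGF1 and 1654 and 1363 CPM after vehicle (log2 fold change -1.57 ± 0.18, FDR = 0.000192). Nnat was at 124 and 113 against 538 and 398 CPM (-2.03 ± 0.22, FDR = 0.000192), and Mylip, a ubiquitin ligase for the LDL receptor, at 891 and 843 against 1539 and 2304 CPM (-1.13 ± 0.19, FDR = 0.019). In these 3 genes both FGF1 mice were below both vehicle mice, as in 18% of all genes.

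The other 7 genes were Gm26917 (-3.37 ± 0.37), Gm11273 (-3.58 ± 0.60), the vesicle GTPase Rab26 (-2.92 ± 0.54), the cytochrome c oxidase subunit Cox6a1 (-2.86 ± 0.41), Rabac1 (-1.97 ± 0.34), the mitochondrial insertase Oxa1l (-1.74 ± 0.31) and the splicing factor Snrnp70 (-1.20 ± 0.20), with FDR from 0.000192 to 0.0348. Folds of like sign were seen in the other types of the same mice. Gm26917 had log2 fold changes of -3.13 ± 0.88 in unmapped neurons, -3.41 ± 0.64 in astrocytes and -3.18 ± 0.51 in OPC and COP nuclei, and Cox6a1 -2.48 ± 0.89, -3.33 ± 0.65 and -3.16 ± 0.43. In the same order, Ptgds had -1.36 ± 0.27, -2.53 ± 0.42 and -1.30 ± 0.37, and Nnat -1.97 ± 0.36, -0.77 ± 0.39 and -2.75 ± 0.27. Mylip had -1.03 ± 0.16, -1.11 ± 0.37 and -0.99 ± 0.25. Several of these genes also varied strongly between mice of 1 group. In the oligodendrocyte nuclei of the 3 Day 1 FGF1 mice, Ptgds was at 3607, 1379 and 1048.5 CPM without TMM scaling. Mylip was at 1331, 1919 and 4711 CPM there. Cox6a1 was at 381, 39.8 and 27.2 CPM and Gm11273 at 216, 4.42 and 5.45 CPM in the 3 Day 1 FGF1 mice, of which the first had 19534 CPM of ribosomal protein transcripts against 8537 and 8741 CPM in the other two. On Day 5 these transcripts took 9872 and 7131 CPM after FGF1 and 10297 and 10285 CPM after vehicle. Their part in the Day 5 calls was not tested.

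**Figure D5:**
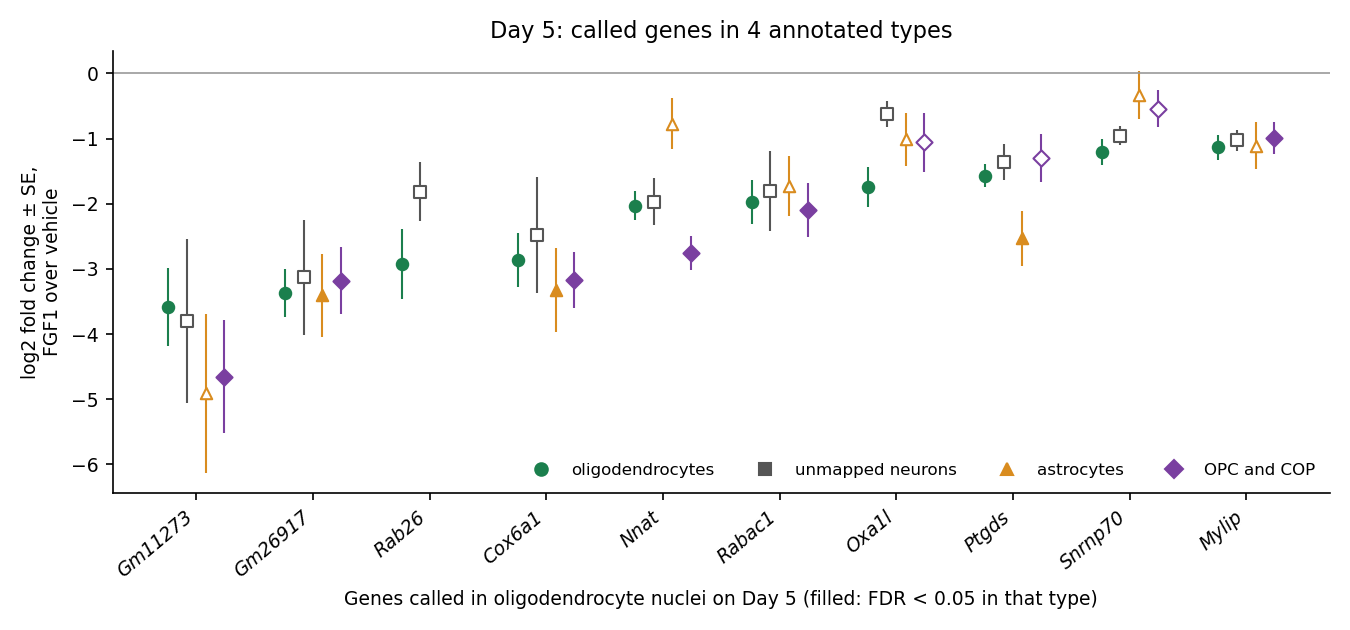
Log2 fold change ± SE on Day 5, FGF1 over vehicle (n = 2 mice each), of the 10 genes called in oligodendrocyte nuclei, in 4 annotated types, filled where FDR < 0.05 in that type. All folds drawn lay below 0, and types with too few UMIs of a gene have no point.

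Of the 16 genes called on Day 1, 11 were tested on Day 5 and 0 were called, beside 0.119% of all genes. Col5a3, Gjb1, Gpd1, Serpina3n and Vim had too few UMIs to be tested. Mog was at 421 and 412 CPM after FGF1 and 433 and 429 CPM after vehicle (-0.05 ± 0.19, FDR = 0.984), and Mbp at 635 and 624 against 585 and 624.8 CPM (0.06 ± 0.18, FDR = 0.981). Sept4 (0.29 ± 0.22), Aspa (0.06 ± 0.22), Mat2a (-0.03 ± 0.20) and Rhoj (-0.24 ± 0.48) had folds close to 0 relative to their errors. Il33 was still at 86.6 and 72.8 against 33.5 and 37.9 CPM, both FGF1 mice above both vehicle mice, as in 18.3% of all genes (1.18 ± 0.33, FDR = 0.3). S100a6, at 20.6 and 40.4 against 7.97 and 12.6 CPM, likewise did not overlap (1.86 ± 0.58, FDR = 0.447), and Cdh20, Stat3, Fkbp1a and BC051142 had folds from 0.34 to 0.53 with FDR of 0.806 or above. The compact myelin list had 0 of 14 called, beside 0.119% of all genes, and a median of 0.28 beside 0.00 for all genes. Without overlap, 1 of its genes was higher and 2 were lower, beside 18.3% and 18% of all genes. The reactive list had 0 of 5 called, beside the same 0.119%, with a median of 0.38.

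Whether the FGF1 effect differed between days was tested directly over all 10 mice. By edgeR 0 of 8914 genes passed (0%), with 332 (3.72%) at p under 0.05, and no other tool was run on this test. The effect on Mog was 1.52 ± 0.36 higher on Day 5 than on Day 1 on the log2 scale (FDR = 0.618), that on Sept4 1.92 ± 0.38 higher (FDR = 0.54), and that on Aspa 1.94 ± 0.44 higher (FDR = 0.547). For Gjb1 the difference was -4.32 ± 0.91 (FDR = 0.54), for Il33 -1.54 ± 0.50 (FDR = 1). Without the filter on low counts 15 genes passed. The 2 mice per group on Day 5 came from other batches than the Day 1 mice.

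The whole-cell cohort gave a second view of Day 5, from other mice and with cytoplasmic RNA. The paper names another stock of ob/ob mice for it, from Janvier, than for the nuclei, from Jackson. The oligodendrocyte clusters of this cohort held 274 to 2074 cells and 356330 to 2921793 UMIs per mouse. 190 of 8438 genes (2.25%) differed, 95 higher and 95 lower (1.13% each), and 1542 had p under 0.05 before adjustment. Each batch held an FGF1 and a vehicle mouse, and more genes were called with the batch as a block, as given in the last section. Values are the lowest, median and highest of 6 mice, in TMM-scaled CPM. No test was made between the cells and the nuclei.

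Of 14 compact myelin genes, 6 rose after FGF1 in these cells, beside 1.13% of all genes. Of the rest 0 fell and 8 did not pass the test, and the median log2 fold change was 0.46 beside 0.00 for all genes. Mal was at 2767, 4351 and 5504 CPM after FGF1 and at 2242, 2371 and 3100 CPM after vehicle (0.77 ± 0.16, FDR = 0.00952), and Mog at 995, 1529 and 1857 against 838, 961 and 1251 CPM (0.57 ± 0.15, FDR = 0.0464), where 1 vehicle mouse lay above the lowest FGF1 mouse for Mal and 3 did for Mog. Opalin (0.73 ± 0.17), the small heat shock protein Cryab (0.71 ± 0.18), the tight junction protein Cldn11 (0.69 ± 0.15) and the tetraspanin Cd9 (0.54 ± 0.11) also rose, with FDR from 0.00838 to 0.0482. Mag had a log2 fold change of -0.02 ± 0.11 (FDR = 0.96), and Mbp one of 0.39 ± 0.15 (FDR = 0.165).

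Of the 16 genes called in Day 1 nuclei, 14 were tested in the Day 5 cells and 5 were higher, beside 1.13% of all genes, among them Mog, which was lower in the Day 1 nuclei. Il33 was at 381, 524 and 716 CPM after FGF1 and 199.6, 249 and 352 CPM after vehicle (0.97 ± 0.17, FDR = 0.00593), and S100a6 at 436, 506 and 559 against 224, 257 and 336 CPM (0.90 ± 0.12, FDR = 0.000143). In both genes all 6 FGF1 mice lay above all 6 vehicle mice, as in 0.853% of all genes. Vim (1.38 ± 0.24, FDR = 0.00663) and Rhoj (0.88 ± 0.19, FDR = 0.00995) also rose, and Serpina3n did not pass, with 139 CPM in FGF1 mouse 6 and at most 49.7 CPM in the others (1.48 ± 0.49, FDR = 0.131). Gpd1 (0.46 ± 0.16, FDR = 0.128), Gjb1 (0.26 ± 0.12, FDR = 0.257), Stat3 (0.22 ± 0.14, FDR = 0.437), Sept4 (0.07 ± 0.14, FDR = 0.851) and Aspa (0.00 ± 0.12, FDR = 0.998) were not called. In the reactive list 4 of 16 rose, beside 1.13% of all genes, namely Il33, Vim, Cd44 (1.18 ± 0.29) and Anxa2 (1.05 ± 0.24). Vim is also a gene of tanycytes, and a list of 9 tanycyte markers was higher in the same cells without overlap, at 1871 to 2498 against 1540 to 1729 CPM. Its part in these values was not tested.

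Among called genes, the largest folds in the cells fell on genes outside the myelin list, and only called genes are ranked here. Slc9a3r2, a scaffold of membrane transporters, was at 14.99, 39.7 and 89.9 CPM after FGF1 and 10.0, 12.0 and 14.7 CPM after vehicle (1.85 ± 0.37, FDR = 0.0209). It was followed by Fam83d (1.73 ± 0.29), Crym (1.498 ± 0.271), a thyroid hormone-binding protein and tanycyte marker, Vim, and the orphan receptor Gpr50 (1.31 ± 0.30). The lowest were 2900052N01Rik (-2.01 ± 0.31), Arl4d (-1.65 ± 0.21), the muscle glycogen phosphorylase Pygm (-1.65 ± 0.32), Tlcd1 (-1.59 ± 0.25) and Slitrk2 (-1.57 ± 0.32). Of 16 tested glucose and lactate genes, 14 had folds below 0 (median -0.46) and 3 fell, beside 1.13% of all genes. They were Eno2 (-0.85 ± 0.22), Aldoc (-0.57 ± 0.13) and Gapdh (-0.45 ± 0.11). Eno2 is also on the neuronal marker list read below. The parts of neuronal and astrocyte RNA in the folds of these 3 genes were not tested. Of those genes called on Day 5 in nuclei that were tested in cells, 0 were called there, with Ptgds at -0.70 ± 0.26 (FDR = 0.163) and Nnat at 0.44 ± 0.39 (FDR = 0.632).

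Markers of other cell types were also read in these cells. Besides the tanycyte list, which holds Crym, the neuronal list summed to 315 to 722 CPM after FGF1 and 550.1 to 1046 CPM after vehicle, and the astrocyte list to 1291 to 2772 against 2177 to 4094 CPM, both with overlap. Both had lower means after FGF1, 503 against 801 CPM for neurons and 2001 against 3220 CPM for astrocytes. The exact permutation test gave p = 0.013 for neurons, 0.0195 for astrocytes and 0.00216 for tanycytes. Of the tanycyte list 2 of 5 tested members rose, and 2 of 10 neuronal and 1 of 10 astrocyte markers fell, beside 1.13% of all genes in each direction. Their part in the whole-cell calls was not tested.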

How the data were processed

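The members and gene lists were chosen with earlier results of these data known, and some lists came from that earlier work. The authors made 10x 3' v2 libraries from 10 mice (nuclei) and 12 mice (whole cells), aligned them with Cell Ranger (version 1.2 in the submitters' processing notes) to GRCm38, with introns included for the nuclei, and annotated clusters with Seurat. They deposited raw UMI counts per gene and nucleus, whose sums matched the metadata for 24965 of 24965 nuclei and 54890 of 54890 cells; the log-normalized tables were not used. Filters described by the study took out genes seen in few nuclei and barcodes with few genes. Doublets were removed by the authors from whole cells only, and no caller was run here on either set. 318 nuclear barcode sequences occurred in more than 1 library, and 0 were repeated within one.

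Counts were summed per mouse (at least 10 nuclei) and tested with edgeR 4.0.16 (filterByExpr, TMM, robust glmQLFit, glmQLFTest; Benjamini-Hochberg over all genes tested) in R 4.3.3. DESeq2 1.42.0 was an alternative. Each mouse was a separate library of 1 animal. Single values were compared by exact two-sided permutation over mice. Whole-cell oligodendrocyte clusters were those with Mog, Mag and Cldn11 each in at least 10% of cells and at 2 or more times the level of all other cells, and with neither Gpr17 nor Pdgfra so. Named genes were all genes called on Day 1 or Day 5, the 5 lowest p among called genes of each effect-difference test, the 5 largest called folds in each direction in whole cells, up to 4 members of each list by Day 1 p, and every compact myelin gene; further members that passed, or missed, a list's test, such as Cd63, Bcas1 in the effect-difference tests, Cd44, Anxa2, Eno2, Aldoc and Gapdh, were named after their values were seen. Positions are those of the GRCm38 reference annotation. The tests were tested on simulated data with known changes, where small changes were seldom recovered on Day 1 and false calls there were above the nominal rate. Alternatives were DESeq2, RLE scaling, no filter on low counts, leaving out each mouse, subsets of nuclei (by own markers, neuronal share, or mitochondrial and ribosomal UMIs), thinning to 1000 UMIs and the replicate number as a block; the batch block was added after seeing the data. The authors' normalized tables and all other annotated types, except as compared, were left out. One gene of the compact myelin list is not reported here and was left out of that list's counts and sums. Thinned shares of nuclei with a UMI are exact hypergeometric expectations. Depth limits single genes to the UMIs summed per mouse, and shares of nuclei with a UMI are given as ranges over mice.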

Additional observations from a re-analysis of the deposited data

Results flagged for a closer look

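In whole-cell oligodendrocytes, 8 of 88 groups of 6 mice had 1 mouse far from the rest by Dixon's gap criterion, which chance meets in about 1 of 20 groups. Among FGF1 mice, Serpina3n was at 139 CPM in mouse 6 (others 16.1 to 49.7), Cdh20 at 29.98 CPM in mouse 21 (others 16.6 to 19.4), and in mouse 28 Rhoj was at 22.9 CPM (others 55.3 to 73.0) and Plekhb1 at 501 CPM (others 574 to 612). Among vehicle mice, mouse 27 had Cdh20 at 44.0 CPM (others 18.3 to 25.4), Snrnp70 at 244 CPM (others 139.7 to 171) and Stat3 at 52.8 CPM (others 59.7 to 63.3), and mouse 22 had Gm26917 at 46.6 CPM (others 11.7 to 22.7). Mouse 27 had the fewest oligodendrocyte cells of the cohort, 274.

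The Day 1 FGF1 effect differed between oligodendrocyte nuclei and another type of the same mice by the interaction test in edgeR for 21, 9 and 6 genes, of which the following are named by the rule. As differences of log2 fold changes, against unmapped neurons these were Slc38a2 1.45, Il33 1.93, Mat2a 0.90, Pvt1 1.22, Dock1 1.36, Gpd1 2.68, Rhoj 1.27, Sept4 -1.12 and Cdh20 1.05. Against astrocytes they were Shisa6 -2.78, A330033J07Rik 3.54, Itga5 -4.23, Oxr1 -2.03 and Hpgd -5.64. Against OPC and COP nuclei they were Gpc5 -1.06, Lhfpl3 -1.03, Cdh19 -1.28, Oxr1 -0.87 and Nnat 1.00.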

How the results depend on the processing

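The number of genes called on Day 1 (16) was 19 with DESeq2 and 17 with RLE scaling, 66 without the filter on low counts, 1 in nuclei at or below the median neuronal share, and 0 in nuclei with 3 or more UMIs of Mbp, Mog and Mag together (own-marker UMIs), in thinned nuclei and with the batch as a block. The own-marker set is chosen by Mbp, Mog and Mag themselves and lacks FGF1 mouse 3, which had 9 such nuclei. The cause of the lost calls was not tested. Leaving out 1 mouse gave 0 to 36 calls. On Day 5 (10) there were 4 with DESeq2, 69 without the filter, 19 at or below the median neuronal share, 22 with the batch block, and 23 to 129 without 1 mouse, where 1 group is a single mouse whose spread is assumed to be that of the other group. The difference between days gave 15 without the filter and 0 otherwise. The difference from neurons (21) gave 9 to 26 without 1 mouse, that from astrocytes (9) 2 to 25, and that from OPC and COP (6) 3 with RLE scaling and 2 to 6 without 1 mouse. Whole cells (190) gave 348 with the batch block.

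Folds that changed sign on Day 1 were, in nuclei with 3 or more own-marker UMIs, Mbp 0.076, Mobp 0.65, Cnp 0.68, Opalin 0.55, Cldn11 0.35 and Gsn 1.12; at or below the median neuronal share, Mobp 0.041 and Mag -0.069; in thinned nuclei, Mobp 0.16 and Mag -0.36. Without 1 mouse, Mobp ranged from -0.21 to 0.017, Mag from -0.31 to 0.24, Opalin from -0.58 to 0.10 and Gsn from -0.46 to 0.12. The Day 5 difference in share was -0.196 points over non-neuronal nuclei. None of these values was called.

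The replicate numbers of the labels did not pair the mice (r = -0.154, -0.27 and 0.203 for equal numbers), and with the replicate block 5 genes were called on Day 1. On Day 5 the groups share no number. The 16 called genes kept their sign under each alternative in which they were tested. Since their groups did not overlap, that sign was largely fixed beforehand, and nothing is read from it. The batch block was chosen after seeing the data. With 3 or 2 mice a group and 31 to 424 nuclei a mouse, a gene that did not pass is not shown to be unchanged.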
